A study of Arabidopsis thaliana with 10 samples.

Results

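The calcium-dependent protein kinases CPK1 to CPK34 of Arabidopsis thaliana were examined in roots, in the Col-0 wild type and the mutant mcu123, described in the labels as a triple knockout of MCU genes. The genes were taken by locus code, and all 34 were among the 27826 features of the deposited table, each as 1 feature. Roots came from 20-day-old seedlings kept in sterile hydroponic boxes, with 16 h of light at 21 °C and 8 h of darkness at 17 °C. Each of the 5 arrays per genotype held RNA of pooled roots, and no treatment was given beyond cutting and freezing. MCU proteins form the pore through which mitochondria take up calcium. The alleles and the number of independent mutant lines are not given in the labels.

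Calcium-dependent protein kinases join a kinase domain to a calmodulin-like domain with EF hands on one polypeptide, so that calcium binding itself releases an inhibitory segment and switches the kinase on. They turn calcium signals into phosphorylation of ion channels, NADPH oxidases and transcription factors, and are best known from abscisic acid, nitrate and immune signalling and from pollen tube growth. The family falls into 4 sequence subgroups, of which subgroup I holds 10 of these genes, subgroup II 13, subgroup III 8 and subgroup IV 3. In bulk roots, fewer cells of a type and less RNA per cell cannot be told apart.

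Of the targeted genes, MCU3 (AT2G23790) fell from 6.12 ± 0.22 to 4.14 ± 0.28 and MCU1 (AT1G09575) from 4.52 ± 0.23 to 2.87 ± 0.16 (log2 signal, mean ± SD, n = 5 each, limma adjusted p = 4.0e-04 for each). MCU2 (AT1G57610) lay below the array median of 4.30 in both genotypes, at 2.86 ± 0.29 and 2.77 ± 0.27. Its log2 difference of -0.09 did not pass the test (limma adjusted p = 0.94). The 7 root markers lay above the array median on every array. The 6 pollen markers, chosen as genes of another tissue, had mean signals of 1.52 to 2.42. The 7 photosynthetic shoot markers had an average of 2.79 to 3.70 on the wild-type arrays and 2.84 to 3.997 on the mcu123 arrays, with only RBCS1A above the median throughout, and their part in the results below was not tested. The array mcu123 replicate 3 had the lowest array weight (0.394).

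Most of the family gave a root signal above the array median, and the order within the family was nearly the same in both genotypes. On all 10 arrays, 12 CPK genes lay above the upper quartile of all features (6.28), 21 lay above the median (4.30), and 3 lay below the lower quartile (2.05). Over all features, 19.4% lay above the upper quartile on every array, 44.1% above the median and 13.6% below the lower quartile. No gene moved by more than 2 places between the order in the wild type and the order in mcu123, and 9 of the top 10 were shared. Member means spanned 8.26 on the log2 scale and genotype differences only -0.60 to 0.37, so a stable order says little about genotype. The order is one of signal, since each feature has its own probes with their own response, and it need not be the order of transcript amounts.

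**Figure D1:**
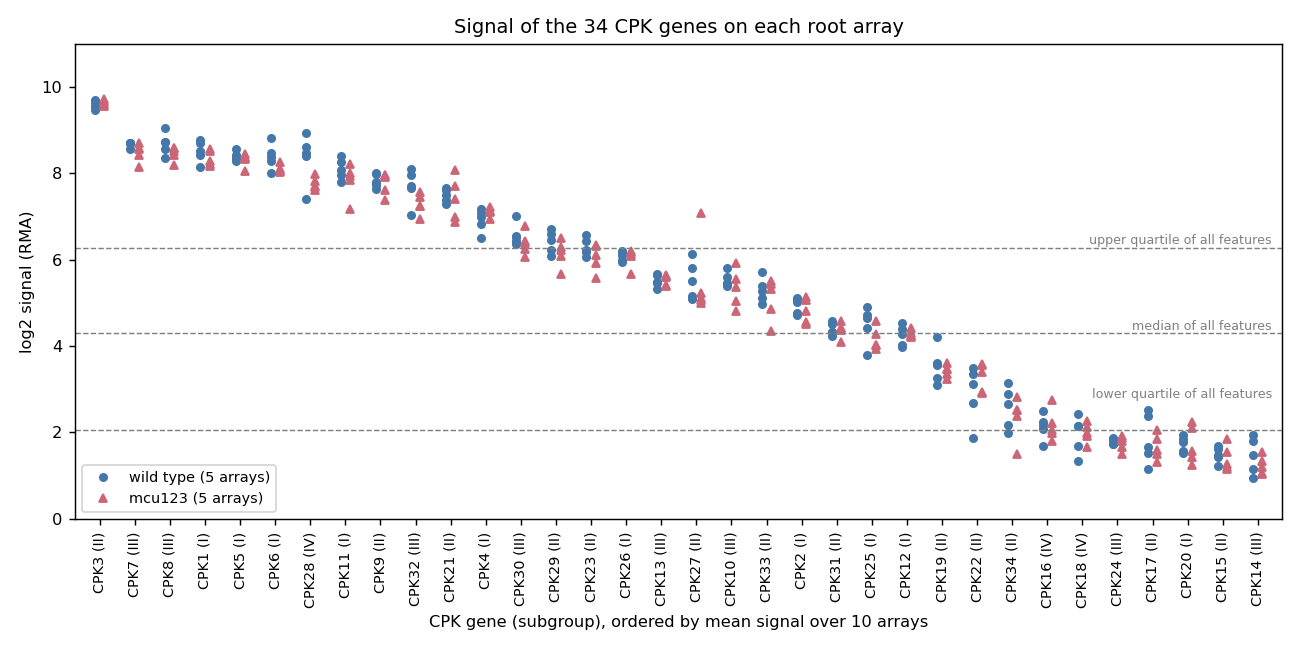
Log2 signal (vertical axis) of the 34 CPK genes on each array, ordered by mean signal over the 10 arrays (horizontal axis, subgroup in parentheses). Circles are the 5 wild-type arrays, triangles the 5 mcu123 arrays, and dashed lines the quartiles of all features at 2.05, 4.30 and 6.28. CPK3 stands alone at the top, and the genes after it form a slope with overlapping neighbours.

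CPK3 (AT4G23650), a subgroup II kinase that acts on guard-cell anion channels, had the highest signal of the family on every array. Its wild-type arrays read 9.70, 9.48, 9.57, 9.66 and 9.54 and its mcu123 arrays 9.68, 9.56, 9.59, 9.63 and 9.73 (replicates 1 to 5, log2 signal). The mean over the 10 arrays was 9.61 ± 0.08, at the 98.9th percentile of all features and 1.03 above the next gene. Its spread was the smallest of the family, and its groups overlapped almost fully.

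The genes after CPK3 could not be ordered firmly. CPK7 (AT5G12480), implicated in root water transport, averaged 8.59 ± 0.18 over the 10 arrays. CPK8 (AT5G19450), which phosphorylates the catalase CAT3, averaged 8.57 ± 0.23, and CPK7 was the higher of them on 4 of 10 arrays. CPK1 (AT5G04870), linked to immunity and senescence, followed at 8.44 ± 0.22. CPK5 (AT4G35310) and CPK6 (AT2G17290), immune kinases that act on the NADPH oxidase RBOHD, averaged 8.36 ± 0.13 and 8.25 ± 0.25. Of the 33 pairs of neighbours in the order, 2 kept one order on all 10 arrays, CPK3 above CPK7 and CPK26 above CPK13.

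Next came CPK28 (AT5G66210), which controls turnover of the immune kinase BIK1, at 8.07 ± 0.50, and CPK11 (AT1G35670), a positive regulator of abscisic acid signalling, at 7.97 ± 0.34. CPK9 (AT3G20410) averaged 7.80 ± 0.21. CPK32 (AT3G57530), one of the kinases that phosphorylate the nitrate regulator NLP7, averaged 7.49 ± 0.38. CPK21 (AT4G04720), which activates the anion channel SLAC1, averaged 7.45 ± 0.36. CPK4 (AT4G09570), the close relative of CPK11, averaged 7.01 ± 0.21 and was the last gene above the upper quartile on every array.

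A middle group of 9 genes lay above the median on every array, but above the upper quartile only on some arrays or on none. CPK30 (AT1G74740) and CPK10 (AT1G18890), which act with CPK32 on NLP7, averaged 6.48 ± 0.26 and 5.44 ± 0.32. CPK29 (AT1G76040) averaged 6.29 ± 0.30, and CPK23 (AT4G04740), another kinase of SLAC1, averaged 6.18 ± 0.28. CPK26 (AT4G38230) and CPK13 (AT3G51850), the latter known for its action on guard-cell potassium channels, averaged 6.07 ± 0.16 and 5.53 ± 0.13. CPK27 (AT4G04700), linked to salt tolerance, averaged 5.52 ± 0.66, the widest spread of the family. CPK33 (AT1G50700), which phosphorylates the flowering factor FD, and CPK2 (AT3G10660), known from pollen tubes, averaged 5.20 ± 0.39 and 4.88 ± 0.23.

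Around the median, CPK31 (AT4G04695), a regulator of arsenite uptake, averaged 4.39 ± 0.15, CPK25 (AT2G35890) 4.33 ± 0.38 and CPK12 (AT5G23580) 4.26 ± 0.17, and each fell on both sides of the median between arrays. CPK25 is the member known to lack working EF hands, and CPK12 restrains abscisic acid signalling. The other 10 genes lay below the median on every array.

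The 10 genes below the median included CPK17 (AT5G12180), required with CPK34 for pollen tube growth, which averaged 1.76 ± 0.44. CPK20 (AT2G38910) averaged 1.73 ± 0.31 and CPK24 (AT2G31500) 1.78 ± 0.12. These 3 means lie within the 1.52 to 2.42 of the pollen markers. CPK34 (AT5G19360) averaged 2.46 ± 0.48, just above that range. CPK14 (AT2G41860) and CPK15 (AT4G21940) gave the lowest signals, 1.35 ± 0.34 and 1.45 ± 0.23. CPK16 (AT2G17890) and CPK18 (AT4G36070) averaged 2.15 ± 0.31 and 1.97 ± 0.33, also within the range of the pollen markers. That range is at the low end of the signal scale and is not particular to pollen kinases. CPK19 (AT1G61950) at 3.49 ± 0.30 and CPK22 (AT4G04710) at 3.09 ± 0.53 lay between these and the median. No value here separates a low transcript from background.

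Every subgroup held both bright and dim genes. Means ran from 1.73 to 8.44 in subgroup I (median 6.54), from 1.45 to 9.61 in subgroup II (median 5.20), from 1.35 to 8.59 in subgroup III (median 6.01) and from 1.97 to 8.07 in subgroup IV (median 2.15). In subgroup IV, CPK28 was bright while CPK16 and CPK18 were dim. Genes next to each other on the chromosome also differed. CPK31, CPK27, CPK22, CPK21 and CPK23 lie in that order within 6 consecutive gene models of chromosome 4, with 1 other gene model before CPK23, and their mean signals were 4.39, 5.52, 3.09, 7.45 and 6.18. Close relatives in this family can share probe sequence, and how far the probes separate them is not given in the sources used here.

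In mcu123 no CPK gene passed the test. Of the 34 genes, 0 had a limma adjusted p below 0.05, where 0.0431% of all features did (0.0395% lower and 0.00359% higher in mcu123), and the smallest in the family was 0.57, for CPK28. At an unadjusted p below 0.05 there was 1 gene, CPK28 (2.94% of the family), where 7.46% of all features lay below that value, 4.08% with a lower mean in mcu123. No CPK gene had groups that did not overlap, where 1.7% of all features had such groups. These shares are at or below those of all features.

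The differences were small, and most pointed the same way. The mean was lower in mcu123 for 27 of the 34 genes (79.4%) and higher for 7, where 47.3% of all features had a lower mean. The median log2 difference of the family was -0.12, where that of all features was 0.01. Among the 23 genes with a mean above the array median, 20 had a lower mean in mcu123, with a median difference of -0.19. Of all features that bright, 45.6% had a lower mean, with a median difference of 0.02. These are counts over genes measured on the same arrays, and they carry no test.

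Of the 24 genes above the array median on at least 1 array, 23 had a 95% interval of the log2 signal difference inside a 2-fold change in either direction, and 14 had one inside 1.5-fold. The exception at 2-fold was CPK28. Detection calls were not used, so the intervals bound the signal and need not bound the transcript. This limit is strongest for the other 10 genes, which lay below the median on every array. Over all 34 genes, standard errors ran from 0.10 for CPK3 to 0.37 for CPK27, with a median of 0.17.

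**Figure D2:**
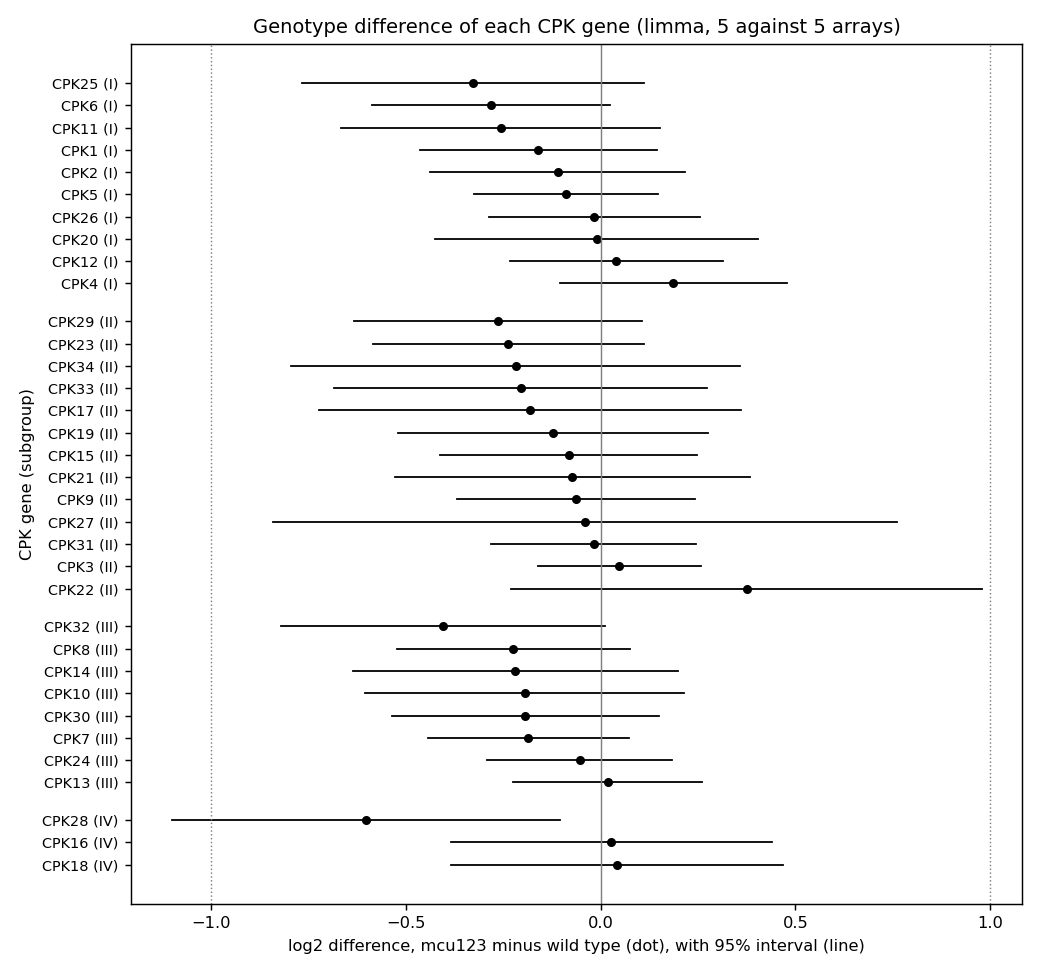
Log2 difference between mcu123 and the wild type for each CPK gene (dot) with its 95% interval (line), grouped by subgroup on the vertical axis. The dotted lines mark a 2-fold change. The interval of CPK28 alone leaves out 0, before any adjustment for the number of features, and 27 of the 34 dots lie left of 0.

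CPK28 had the lowest difference in the family. Its wild-type arrays read 8.41, 8.62, 8.93, 8.48 and 7.42 and its mcu123 arrays 7.83, 7.71, 7.69, 7.99 and 7.62. The wild-type replicates 1 to 4 lay above every mcu123 array, and wild type replicate 5 lay below every one of them. The wild-type mean was 8.37 ± 0.57 and the mcu123 mean 7.77 ± 0.15 (n = 5 each), a log2 difference of -0.60 (95% interval -1.10 to -0.11, limma adjusted p = 0.57). Without wild type replicate 5 the difference was -0.84 with groups that did not overlap (limma adjusted p = 0.079), and without wild type replicate 3 it was -0.46 (limma adjusted p = 0.75).

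In CPK32 the wild-type arrays read 7.66, 7.97, 8.10, 7.71 and 7.04 and the mcu123 arrays 7.25, 6.94, 7.44, 7.57 and 7.24. Wild type replicate 5 lay among the mcu123 arrays here, and the other wild-type arrays lay above all of them. The log2 difference was -0.41 (95% interval -0.82 to 0.01, limma adjusted p = 0.69). It was -0.57 without wild type replicate 5 and -0.31 without wild type replicate 3. Its partners on NLP7 gave differences of -0.20 for CPK10 and -0.19 for CPK30, and NLP7 itself 0.08, none of which passed.

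In CPK6 the wild-type arrays read 8.30, 8.82, 8.48, 8.37 and 8.01 and the mcu123 arrays 8.12, 8.26, 8.06, 8.03 and 8.12. Here wild type replicate 5 lay below every mcu123 array and the other wild-type arrays lay above them all, and the mcu123 arrays were tightly grouped (8.11 ± 0.09). The log2 difference was -0.28 (95% interval -0.59 to 0.02, limma adjusted p = 0.71). It was -0.38 without wild type replicate 5 and -0.18 without wild type replicate 2. CPK5, its near relative, differed by -0.09 (95% interval -0.33 to 0.15).

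CPK25, whose wild-type arrays read 4.90, 4.43, 4.66, 4.73 and 3.78, had mcu123 arrays of 4.27, 4.04, 3.93, 4.58 and 4.03. Wild type replicate 5 was its lowest array of all, and mcu123 replicate 4 lay among the wild-type arrays. The log2 difference was -0.33 (95% interval -0.77 to 0.11, limma adjusted p = 0.77). It was -0.51 without wild type replicate 5 and -0.23 without wild type replicate 1.

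CPK22 had the highest difference in the family, at low signal. Its wild-type arrays read 2.69, 3.50, 1.87, 3.11 and 3.35 and its mcu123 arrays 3.57, 3.58, 2.92, 2.93 and 3.41. The groups overlapped, and wild type replicate 3 was lowest. The log2 difference was 0.37 (95% interval -0.23 to 0.98, limma adjusted p = 0.82), and 0.12 without wild type replicate 3.

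**Figure D3:**
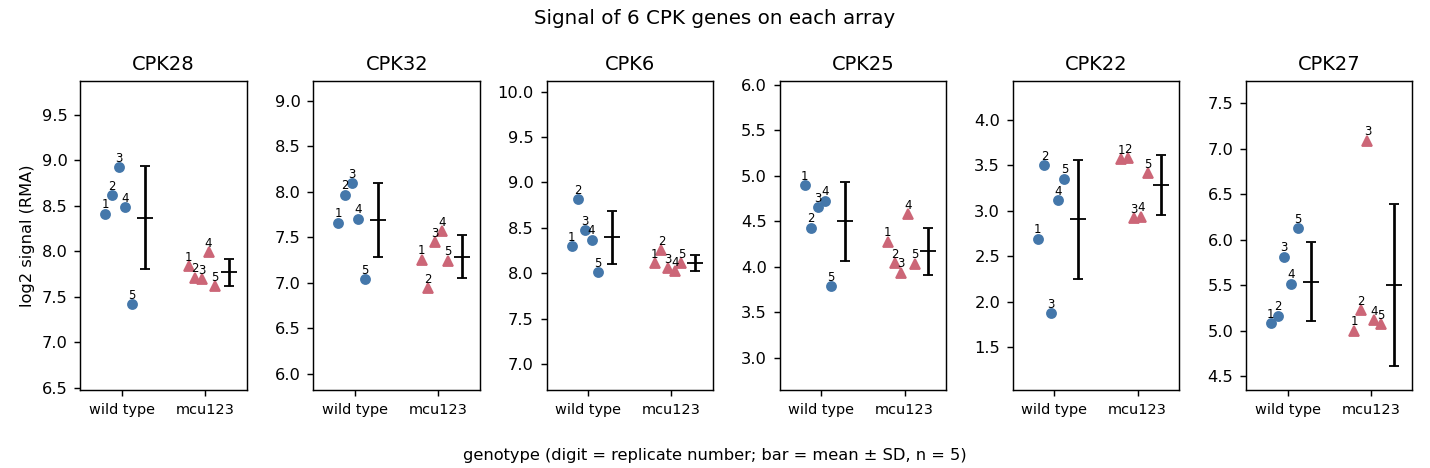
Log2 signal of 6 CPK genes on each array, with the replicate number beside each point and the mean ± SD (n = 5) beside each group. All panels span the same log2 range. Wild type replicate 5 sits below the other wild-type arrays in CPK28, CPK32, CPK6 and CPK25, and mcu123 replicate 3 sits far above the other mcu123 arrays in CPK27.

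The other members gave smaller values. In subgroup I, the log2 differences of CPK11, CPK1, CPK2, CPK26 and CPK20 were -0.26, -0.16, -0.11, -0.02 and -0.01, and those of CPK4 and CPK12 were 0.19 and 0.04. CPK4 and CPK11, which act together in abscisic acid signalling, had differences on opposite sides of 0, neither past the test. In subgroup II the differences were -0.26 for CPK29, -0.24 for CPK23, -0.22 for CPK34, -0.21 for CPK33 and -0.18 for CPK17. CPK19, CPK15, CPK21, CPK9 and CPK31 had -0.12, -0.08, -0.07, -0.06 and -0.02, and CPK3 had 0.05. In subgroup III they were -0.22 for CPK8, -0.22 for CPK14, -0.19 for CPK7, -0.05 for CPK24 and 0.02 for CPK13. CPK16 and CPK18 of subgroup IV had 0.03 and 0.04. The mean was lower in mcu123 in 8 of 10 genes of subgroup I, 11 of 13 of subgroup II, 7 of 8 of subgroup III and 1 of 3 of subgroup IV.

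Single arrays set the spread of several members. Wild type replicate 5 was the lowest wild-type array for 11 of the 34 genes and the highest for 6. Of the 23 genes above the median, it was the lowest for 9. It lay 1.19 below the mean of the other wild-type arrays in CPK28, 0.89 below in CPK25 and 0.82 below in CPK32, but 0.73 above in CPK27 and 0.54 above in CPK30. Among the mcu123 arrays, replicate 3 was lowest for 10 genes and replicate 2 for 9, and among the 23 for 7 and 9. How often each array was the lowest over all features was not counted. In CPK11, replicate 3 read 7.18 where the other mcu123 arrays averaged 8.01 ± 0.16, and the genotype difference was -0.09 without it.

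CPK27 varied most within a genotype. Its mcu123 arrays read 5.0, 5.23, 7.09, 5.11 and 5.07 and its wild-type arrays 5.08, 5.17, 5.81, 5.51 and 6.13. Replicate 3 lay far above the other mcu123 arrays, which spanned 0.23 on the log2 scale. With it the difference was -0.04 (95% interval -0.84 to 0.76), and without it -0.44 (limma adjusted p = 0.43). For its chromosomal neighbours the same array read 4.37 in CPK31, 2.92 in CPK22, 6.99 in CPK21 and 6.33 in CPK23. That was the lowest mcu123 array in CPK22, the next to lowest in CPK31 and CPK21, and close to the highest in CPK23.

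**Figure D4:**
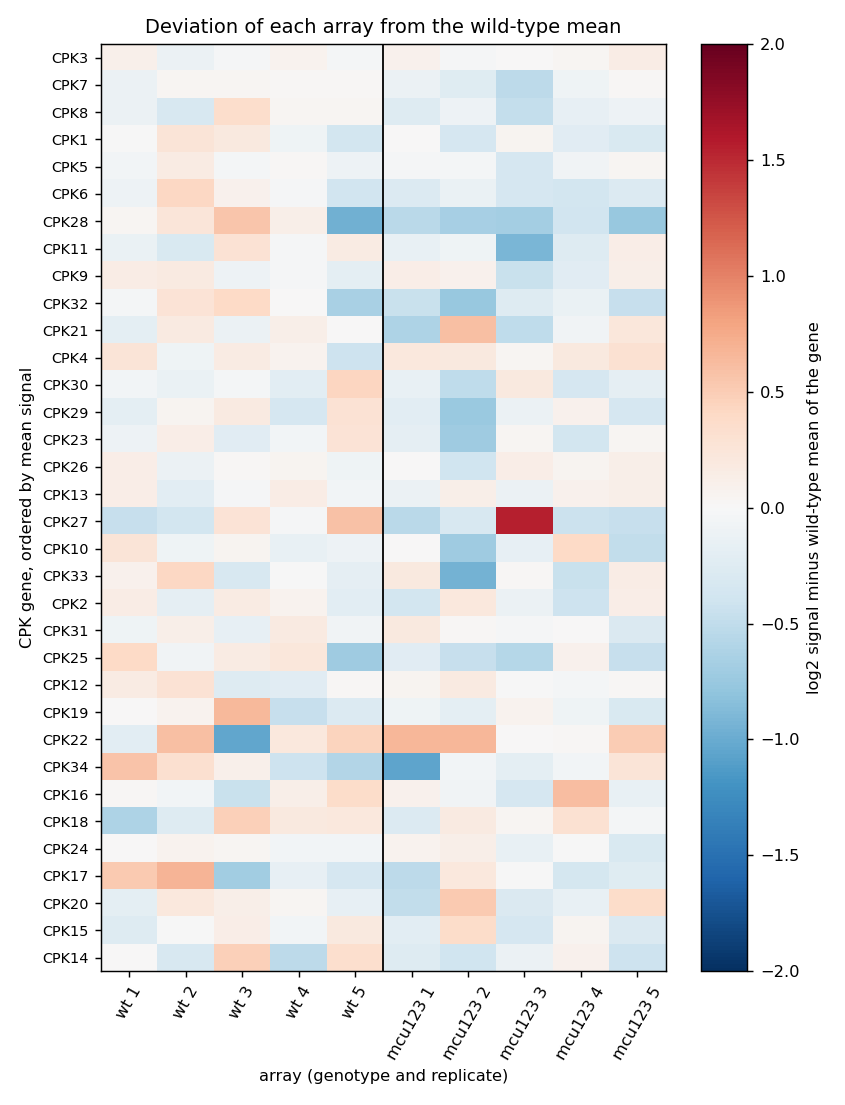
Log2 signal of each CPK gene on each array minus the wild-type mean of that gene (colour), with the genes ordered by mean signal (vertical axis) and the arrays by genotype and replicate (horizontal axis). The strongest cell is CPK27 in mcu123 replicate 3, and the row of CPK28 is low in wild type replicate 5 and in all 5 mcu123 arrays.

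Kinases and proteins that work beside the CPK genes were taken as 3 companion lists with 62 genes. Of the 62, 0 passed the test, where 0.0431% of all features did, so a count of 0 says little about these lists. Of the 12 CDPK-related kinases, which resemble CPKs but are not themselves driven by calcium in the same way, 0 had an unadjusted p below 0.05 and 8 had a lower mean in mcu123 (median log2 difference -0.04). The 3 of smallest p were CRK5 (0.20), CRK6 (0.20) and PPCK1 (-0.25), a kinase of phosphoenolpyruvate carboxylase. Of the 26 CIPK genes, kinases switched on by calcineurin B-like calcium sensors, 5 had an unadjusted p below 0.05 (19.2%, beside 7.46% of all features), and 15 had a lower mean (median -0.05). Over all features, 47.3% had a lower mean. The lists were chosen with earlier results of these data known, so their shares carry no independent test.

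The CIPK genes of smallest p were CIPK17, CIPK15 and CIPK11. CIPK17 averaged 4.01 ± 0.19 in the wild type and 3.50 ± 0.25 in mcu123, and its groups overlapped in 1 array of mcu123 (limma adjusted p = 0.37). CIPK15 averaged 6.62 ± 0.13 and 6.96 ± 0.15, with every mcu123 array above every wild-type array (limma adjusted p = 0.47). CIPK11, an inhibitor of the plasma membrane proton pump, had a log2 difference of -0.55 (limma adjusted p = 0.51). CIPK23, which acts on potassium and nitrate transporters, was the other CIPK gene without overlap, at 9.48 ± 0.18 and 9.20 ± 0.14 (limma adjusted p = 0.63). Its groups nearly touched, with the lowest wild-type array at 9.3594 and the highest mcu123 array at 9.3555. Over all features, 1.7% had groups that did not overlap.

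Among 24 known substrates and partners of CPKs, 4 had an unadjusted p below 0.05 (16.7%), all with a lower mean in mcu123. Over all features the share was 7.46%, with 4.08% having a lower mean. The list was chosen with earlier results of these data known, so this comparison is not an independent test. The median log2 difference of the list was -0.15. The transcription factor WRKY48, a substrate of immune CPKs, had the lowest value. Its wild-type arrays read 8.77, 8.51, 9.27, 8.77 and 9.97 and its mcu123 arrays 7.88, 7.17, 8.02, 7.65 and 7.09. The groups did not overlap, and wild type replicate 5, low in CPK28, was the highest array here. The log2 difference was -1.50 (95% interval -2.09 to -0.90) and missed the threshold (limma adjusted p = 0.096). It passed with a trended robust prior and with array weights, and its limma adjusted p ran from 0.040 to 0.31 over the 16 alternatives.

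WRKY28, substrate of the same kinases, averaged 2.32 ± 0.51 and 1.54 ± 0.32 near the bottom of the scale (limma adjusted p = 0.42). The NADPH oxidases RBOHF and RBOHD, which CPKs activate, had log2 differences of -0.38 and -0.51 (limma adjusted p = 0.53 and 0.65). RBOHF read 8.93 in mcu123 replicate 3 and at most 8.55 in the other mcu123 arrays.

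**Figure D5:**
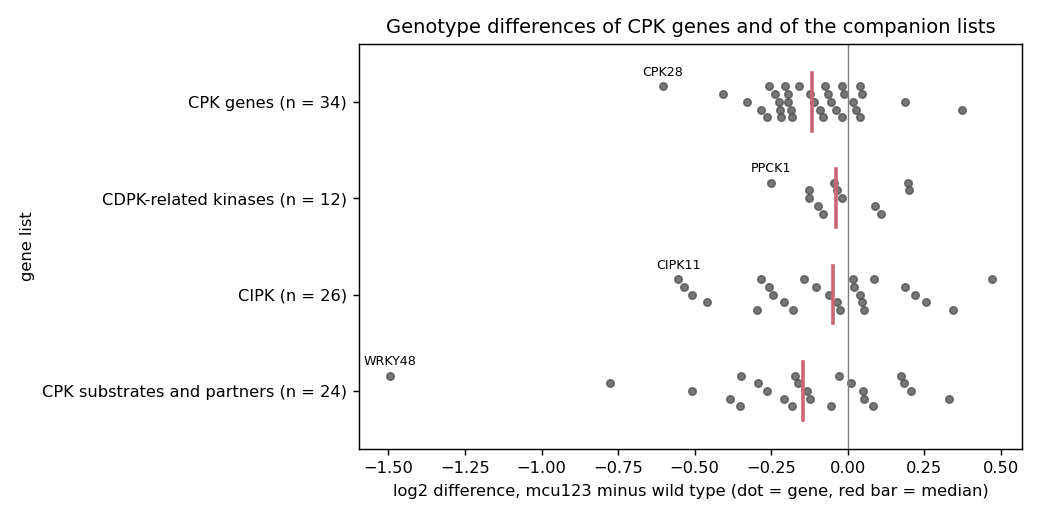
Log2 difference between mcu123 and the wild type for each gene (dot) of the CPK family and the 3 companion lists, with the median of each list as a red bar. The lowest gene of each list is named. The medians lie at -0.12, -0.04, -0.05 and -0.15, and WRKY48 lies apart at -1.50.

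CPK20, CPK15 and CPK17 lie within 30 gene models of genes that were called over all features. How often other genes lie that near a called gene was not counted. In the gene order of the reference, CPK20 lies 18 gene models from the annexin gene ANNAT4 and 17 from ANNAT3, which had log2 differences of -1.59 and -1.54 (limma adjusted p = 0.016 and 0.018). CPK15 lies 16 gene models from MSRB7 (-1.53, limma adjusted p = 0.045), a methionine sulfoxide reductase gene, and CPK17 lies 19 from AT5G12010 (-1.64, limma adjusted p = 0.044). All 3 kinases were at the bottom of the signal scale, with differences of -0.01, -0.08 and -0.18.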

How the data were processed

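RNA from pooled roots was measured on 10 Affymetrix arrays, 5 for each genotype. The authors deposited log2 intensities, which per the submitters' processing notes came from RMA. This method removes background, gives every array one distribution of signal and combines probes into features, so a shift shared by all genes cannot be read. The sources used here do not name the array model, probe grouping, software version, build or scan batches, and no batch was tested. Detection calls were not used here, and precision is limited by having 5 arrays a genotype.

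All 27826 features were fitted with limma 3.58.1 in R 4.3.3 (lmFit and eBayes, genotype as the one coefficient). Two-sided p-values were adjusted by the method of Benjamini and Hochberg over the whole table, with a threshold of 0.05. No feature was dropped. The fit was tested on simulated data. Gene names came from locus codes in the RefSeq table of assembly TAIR10.1, which holds all 34 CPK genes.

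The members, companion lists and rules were chosen with earlier results of these data known. The text names every CPK gene, the targeted MCU1 to MCU3, the called genes or else the 3 of smallest p in each companion list, and called genes within 30 gene models of a CPK gene. CIPK23, RBOHD, NLP7 and RBCS1A were added after their values were seen. The alternatives were dropping the dimmest 30% of features, cyclic loess, centring on 10 reference genes, a trended robust prior, array weights, a block for the replicate number, and leaving out each array in turn. The labels do not say that the pools came from separate cultures, so the p-values reflect only how these pools varied.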

Additional observations from a re-analysis of the deposited data

Results flagged for a closer look

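Within each genotype, single arrays far from the others were looked for in 92 sets of 5 arrays, 68 of them from CPK genes, comparing the distance from an outermost array to its neighbour with the full range. Values above 0.71 were picked out, and chance does so in about 5% of sets, or 4.6 of 92. The 4 sets picked out were all from CPK genes. In CPK27, mcu123 replicate 3 lay at 7.09, above the other mcu123 arrays at 5.0 to 5.23 (0.891). In CPK7, wild type replicate 1 lay at 8.56, below the others at 8.70 to 8.72 (0.873), a gap that is small on the log2 scale. In CPK26, mcu123 replicate 2 lay at 5.67, below the others at 6.09 to 6.21 (0.773). In CPK30, wild type replicate 5 lay at 7.01, above the others at 6.37 to 6.54 (0.735). The causes were not tested.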

How the results depend on the processing

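No CPK gene was called under any of the 16 alternatives, which called between 5 and 35 of all features where 12 were called as reported. The lowest adjusted p of a member was 0.079, for CPK28 without wild type replicate 5. The count of members with an unadjusted p below 0.05 was 3 with a trended robust prior and 3 with array weights, and 0 (without wild type replicate 3) to 4 (without wild type replicate 5) with each array left out. The count with groups that do not overlap was 0 to 3 with each array left out, the 3 without wild type replicate 5. A smaller group separates more easily. For both counts, the shares of all features under these alternatives were not counted, so no trait of the family can be read from them. The companion lists had 1 called gene, WRKY48, with the trended robust prior and with array weights. With the dimmest features dropped, 27 members were left. The median difference of the family ran from -0.16 to -0.099, and 19 members had a lower mean and 3 a higher mean under every alternative run for them, which for CPK14, CPK15 and CPK17 leaves out the one without the dimmest features. The sign differed somewhere for 12 members, 11 of them within 0.1 of 0 as reported, and for MCU2. With each array left out, these differences ran from -0.11 to 0.030 for CPK9, -0.024 to 0.11 for CPK12, -0.034 to 0.056 for CPK13, -0.12 to 0.12 for CPK16, -0.11 to 0.16 for CPK18, -0.24 to 0.041 for CPK19. They ran from -0.14 to 0.11 for CPK20, -0.24 to 0.064 for CPK21, -0.096 to 0.0079 for CPK24, -0.055 to 0.080 for CPK26, -0.44 to 0.11 for CPK27, -0.071 to 0.051 for CPK31 and -0.20 to 0.0062 for MCU2. CPK13 was at -0.011 with array weights. The cause was not tested. Same-numbered arrays did not deviate together (correlations of -0.21 to 0.093), and 0 of 10 arrays matched best with their own number, so the numbers were not taken as pairs. With the replicate block, 0 members were called and CPK28 was at -0.60 (adjusted p = 0.73). Low signal without detection calls limits the 10 members below the median.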
